A study of Mus musculus with 16 samples.

Results

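Stretches of the macrophage genome in which accessible enhancers crowd together were examined in bone marrow-derived macrophages treated with vehicle. ATAC-seq, which cuts and tags open DNA with the Tn5 transposase, had given a list of 35551 vehicle peaks. Of these, 13857 had their midpoint no more than 1 kb from the transcription start site (TSS) of an annotated transcript and were set aside. The 21694 distal peaks were joined across gaps up to the distance in common use for stitching super-enhancers (12498 bp was the largest gap inside a dense cluster), which gave 12570 stitched domains. The 560 domains with 5 or more peaks are called dense clusters here, and their 3499 peaks are called members. Members were thus chosen by the positions of the vehicle peaks, so their number, spacing and size describe the choice and are not a result.

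The cells came from young adult female C57BL/6J mice, for which the labels name no engineered allele, and were used on day 8 of culture in L-cell conditioned medium, after 1 day without serum. The study held 16 libraries of 50000 cells, 4 for each of 4 groups. Its methods describe separately differentiated cultures for each condition, and whether these came from separate mice is not given in the sources used here. Cells received DMSO (Veh) or the liver X receptor (LXR) agonist T0901317 at 500 nM (T0) for 3 h, and the LPS and T0-LPS groups had DMSO or T0901317 for 3 h and then lipopolysaccharide at 10 ng/mL for 2 h more. Groups with LPS therefore also spent 2 h longer in treatment medium, and LPS and that time cannot be told apart. Each group has 1 peak list made from its 4 libraries together, so no value below has a replicate check and no p-value is given. Intervals are 95% intervals that cover counting error only, and they are too narrow where neighbouring peaks move together.

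Enhancers are stretches of DNA away from the start of a gene at which transcription factors bind and raise its transcription. In macrophages PU.1, encoded by Spi1, together with C/EBP, IRF and AP-1 factors opens most of them, and genes that mark a cell type often have many enhancers close together. LXR is a nuclear receptor that senses oxysterols and turns on cholesterol efflux genes, while LPS acts through TLR4 on NF-kB and AP-1.

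The sequences below are the 200 bases at the centre of the strongest member of 6 clusters, shown because these clusters recur in the results, and of 1 member that the T0 list lacked, which was chosen after its values were seen. They are the plus strand of GRCm38, 5′ to 3′. Capitals mark matches to the short motifs listed further on.
Zmiz1 cluster, strongest member, chr14:25527424-25527623: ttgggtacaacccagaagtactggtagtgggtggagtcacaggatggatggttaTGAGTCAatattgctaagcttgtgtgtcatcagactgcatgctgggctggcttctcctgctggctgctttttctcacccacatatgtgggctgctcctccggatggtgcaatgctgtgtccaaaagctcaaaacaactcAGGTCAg
Plekho2 cluster, strongest member, chr9:65535393-65535592: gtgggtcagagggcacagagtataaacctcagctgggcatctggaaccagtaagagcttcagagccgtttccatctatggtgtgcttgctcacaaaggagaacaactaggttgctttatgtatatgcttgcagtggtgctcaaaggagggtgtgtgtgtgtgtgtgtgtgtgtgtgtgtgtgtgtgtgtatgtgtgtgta
Irf8 cluster, strongest member, chr8:120716126-120716325: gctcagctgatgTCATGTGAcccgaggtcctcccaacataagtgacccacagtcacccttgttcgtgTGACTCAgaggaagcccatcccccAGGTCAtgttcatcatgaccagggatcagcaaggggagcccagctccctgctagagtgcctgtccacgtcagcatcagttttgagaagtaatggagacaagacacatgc
Ccl2 cluster, strongest member, chr11:82004861-82005060: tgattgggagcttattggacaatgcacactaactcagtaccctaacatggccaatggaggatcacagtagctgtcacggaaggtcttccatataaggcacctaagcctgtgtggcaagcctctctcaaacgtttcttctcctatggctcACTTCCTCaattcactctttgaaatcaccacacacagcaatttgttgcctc
Zc3h12a cluster, strongest member, chr4:125145309-125145508: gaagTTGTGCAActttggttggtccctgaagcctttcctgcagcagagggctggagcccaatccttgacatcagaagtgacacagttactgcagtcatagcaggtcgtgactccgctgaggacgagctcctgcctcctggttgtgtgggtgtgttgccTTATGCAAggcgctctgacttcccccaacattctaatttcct
Atf3 cluster, strongest member, chr1:191292408-191292607: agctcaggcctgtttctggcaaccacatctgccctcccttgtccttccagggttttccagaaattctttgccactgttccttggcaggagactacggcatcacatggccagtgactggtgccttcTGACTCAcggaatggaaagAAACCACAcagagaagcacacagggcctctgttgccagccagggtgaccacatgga
AL607142.1 cluster, strongest member missing from the T0 list, chr4:119991425-119991624: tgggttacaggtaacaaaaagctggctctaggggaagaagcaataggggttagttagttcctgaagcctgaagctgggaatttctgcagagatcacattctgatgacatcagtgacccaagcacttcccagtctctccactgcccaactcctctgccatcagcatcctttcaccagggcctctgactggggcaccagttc
The Zmiz1 window held an AP-1 match and a nuclear receptor half-site, the Atf3 window an AP-1 and a RUNX match, and the Irf8 window held an AP-1 match, a nuclear receptor half-site and an E-box. The Ccl2 window held a PU.1 match and the Zc3h12a window a pair of C/EBP matches. The Plekho2 window and the window of the missing peak held no match to the letters searched.

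The clusters made up 4.46% of the stitched domains and held 16.1% of the distal Veh peaks. Of the clusters, 260 had 5 members, 131 had 6 and 95 had 8 or more, up to 18. Just outside the rule lay 473 domains with 4 peaks, and the smallest gap between neighbouring distal peaks that was not joined was 12502 bp. Cluster spans ran from 5321 to 76672 bp, with a median of 24398.5 bp, and a median of 8.75% of a cluster's length was covered by its members. Together the clusters spanned 14.6 Mb, with a median gap of 3846 bp between members.

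**Figure D1:**
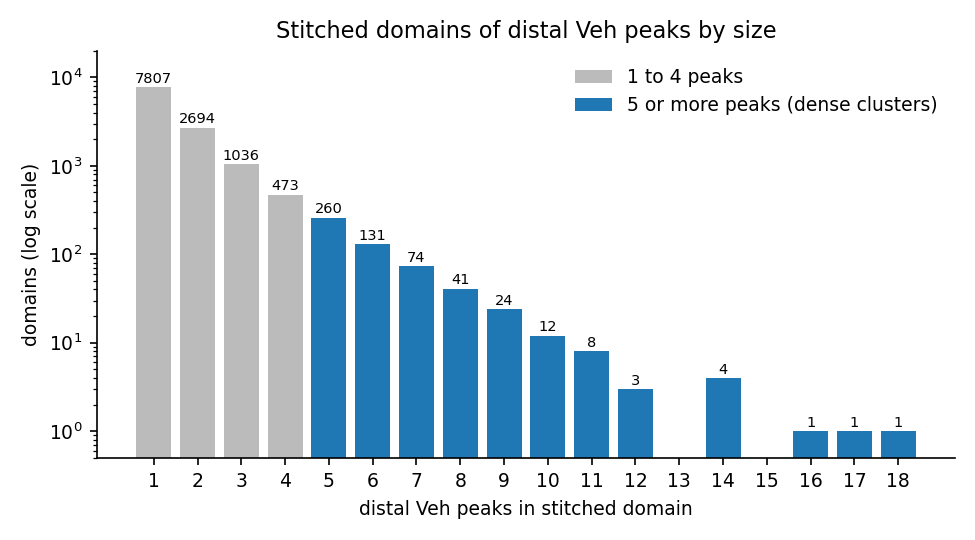
Number of stitched domains (log axis) by the number of distal Veh peaks in them; grey bars are domains with 1 to 4 peaks and blue bars the dense clusters. The counts fall from 7807 single peaks to 473 domains of 4 and 260 of 5, with no break at the limit, and 1 domain holds 18 peaks.

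Clusters were found on all 20 mouse chromosomes other than Y and on 1 unplaced contig. Chromosome 2 had the most, 54, and the X chromosome 8. The 3 clusters on the unplaced contig, with 18 members, had no annotated gene in the annotation used, so their peaks counted as distal by default; leaving them out moved no kept share by more than 0.0634 percentage points. Of the 560 clusters, 408 overlapped the body of a protein-coding gene and 144 contained the TSS of one. The median distance from a cluster's midpoint to the nearest protein-coding TSS was 27247 bp, and 170 midpoints lay more than 50 kb from any. The clusters with an annotated gene fell to 527 nearest genes; Usp6nl, Klf6, Dhrs3 and Jmjd1c were each nearest to 3. The nearest gene is a name for the place and says nothing of which gene an enhancer acts on.

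Members were weaker peaks than the other 18195 distal Veh peaks. The peak caller's score, which rises with the strength and depth of a peak, had a median of 307 in members and 341 in the others, and the median width was 327 against 347 bp. Of the members 6.57% stood in the highest decile of distal peaks by score, against 10.7% of the others. Members lay in introns more often (62.2%, interval 60.6 to 63.8, against 57.5%, 56.8 to 58.2) and in exons less often (2.66%, 2.17 to 3.25, against 4.85%, 4.55 to 5.17). The median score was 366 in domains of 1 peak, 311 in those of 4 and 279 in clusters of 8 or more. Fewer numbers were skipped in the peak names there: 120 were missing inside clusters, or 3.13% of the numbers there, against 34.7% over the whole Veh list. A skipped number was read as a called peak that the authors' filter for enhancer marks had dropped, a reading that the sources used here do not state. The filter used H3K27ac or H3K4me2 of other macrophages, and a cluster is built from peaks that passed it, so the 2 shares are not alike in kind. Its part in where clusters formed was not tested.

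Within a cluster the members were unequal. The strongest member carried a median of 32.1% of the cluster's summed score and stood 5.49 times above the weakest. In 183 clusters the strongest member was in the highest decile of distal peaks, and in 12 it lay below the median distal score.

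The largest cluster lay in introns and an exon of Zmiz1, which encodes a coregulator of transcription, at chr14:25464650-25530711 in GRCm38. It held 18 members with scores of 120 to 886. The second overlapped Plekho2, with 17 members and scores of 92 to 625 at chr9:65524050-65579213, of which 9 lay in introns and 8, the strongest included, in intergenic DNA. The third, with 16 members, overlapped no protein-coding gene, and its midpoint lay 90393 bp from the nearest TSS, that of Tomm20. The next were near Zfp36l2, an mRNA decay factor, with 14 members; at Mpeg1, a pore-forming protein of macrophages, with 14; in Trak1 with 14; and near Pdia4, a protein disulfide isomerase, with 14. Clusters of 12 members lay near Irf2bpl, in Sgms1, a sphingomyelin synthase, and in Lrrfip1. None of these 10 clusters kept every member in all 3 other lists: Plekho2 kept 13 of 17 in all of them, Zmiz1 11 of 18 and Trak1 8 of 14.

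Dense clusters lay near several genes that mark macrophages. Of 20 macrophage identity genes, 9 (45%, interval 25.8 to 65.8) had a cluster within 50 kb of their TSS, against 945 of 21911 protein-coding genes (4.31%). These 9 were Spi1, Cebpa, Irf8 and Runx1, which encode transcription factors of the myeloid lineage, the growth factor receptor Csf1r, the surface protein Adgre1 (F4/80), the chemokine receptor Cx3cr1, the mannose receptor Mrc1 and the LPS coreceptor Cd14. The median identity gene had 6 distal Veh peaks within 50 kb, and the median protein-coding gene 1. No cluster lay within 50 kb of any of 15 genes of T and B cells or of 15 genes of non-haematopoietic cells, each with an upper limit of 20.4%, which takes in the share of all genes; within 100 kb Ebf1, a B cell factor, had one. Of 20 housekeeping genes 4 had one (20%, interval 8.07 to 41.6): Actb, B2m, Pgk1 and Rplp0. The clusters near B2m, Pgk1 and Rplp0 had their midpoints nearest to Trim69, Tlr13 and Pxn.

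**Figure D2:**
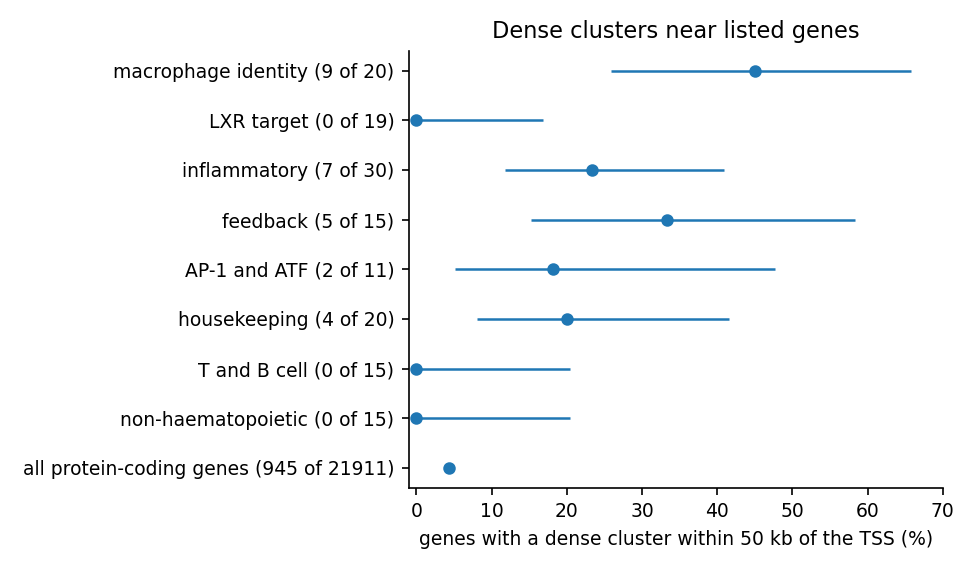
Share of genes in each list, in percent, with a dense cluster within 50 kb of the TSS; points are shares and bars 95% intervals for counting error. Macrophage identity genes stand at 45%, LXR target, T and B cell and non-haematopoietic genes at 0%, and all protein-coding genes at 4.31%.

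Genes of inflammation and of its feedback control also had clusters nearby, to be read against the 4.31% of all protein-coding genes. Of 15 feedback genes 5 had a cluster within 50 kb (33.3%, 15.2 to 58.3): Zc3h12a and Zfp36, which encode proteins that destroy cytokine mRNA, Socs3, which blocks cytokine receptor signalling, Bcl3, an atypical inhibitor of NF-kB, and the phosphatase gene Dusp5. Of 30 inflammatory genes 7 had one (23.3%, 11.8 to 40.9), but these shared 4 clusters: Ccl2 and Ccl7 stood at one, Ccl3, Ccl4 and Ccl9 at another nearest to Ccl6, and Il10 and the integrin gene Itgb2 had their own. Il10 was counted in this list although its cytokine restrains inflammation. Of 11 AP-1 and ATF genes Atf3 and Junb had one (18.2%, 5.14 to 47.7). Of 19 LXR target genes, such as Abca1 and Srebf1, 0 had a cluster within 50 kb, which allows a share of up to 16.8%, and none had one within 100 kb; the share in all protein-coding genes, 4.31%, lies within that limit. Their median was 2 distal Veh peaks within 50 kb, and 3 of the 19 had 5 or more without a cluster in reach.

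The 10 clusters near identity genes, 2 of them near Mrc1, held 63 members. The T0 list kept 50 of them (79.4%), the LPS list 54 (85.7%) and the T0-LPS list 52 (82.5%), against 76.2, 78.8 and 73.1% in the other clusters' members weighted to the same scores. All 3 intervals of the identity clusters took in the weighted value (67.8 to 87.5, 75 to 92.3 and 71.4 to 90.0%). The Cx3cr1 and Spi1 clusters, with 5 members each, kept every member in every list. At Spi1 the members' scores were 196, 436, 221, 260 and 209 in Veh and 94, 254, 144, 160 and 120 in T0. Scores grow with depth, so here and below those of different lists are not on the same scale. The median score of all peaks was 372 (Veh), 305 (T0), 319 (LPS) and 292 (T0-LPS). In percentiles of the respective list the median Spi1 member changed by -15.2 (T0), -1.63 (LPS) and -4.16 (T0-LPS). The median kept member of all clusters changed by -6.49, -3.79 and -5.86, and such percentiles carry the unequal length of the lists. The Veh scores of the Cx3cr1 members were far higher than those at Spi1, 813, 878, 765, 254 and 856. The Irf8 cluster spanned 46461 bp upstream of and across Irf8 with 10 members; each of the other lists kept 8, but they shared 5. Adgre1 kept 2 of 5 members (T0), 4 (LPS) and 3 (T0-LPS).

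The feedback clusters held 30 members, of which T0 kept 25 (83.3%), LPS 27 (90%) and T0-LPS 26 (86.7%), against 81.4, 83.0 and 77.6% in the other clusters' members weighted to the same scores. At Zc3h12a, 7 of 8 members were kept in each list, and the missing one was the weakest, with a Veh score of 132. Its strongest member, the one printed above, scored 1246 (Veh), 808 (T0), 1021 (LPS) and 931 (T0-LPS). At Socs3 the LPS and T0-LPS lists kept 5 of 6 members and each added 2 peaks that the Veh list lacked. The Bcl3 cluster kept all 5 members in all lists. Its outermost member scored 164 (Veh), 97 (T0), 709 (LPS) and 644 (T0-LPS), which was percentile 18.4, 5.81, 85.3 and 85.1 of the respective list. The Bcl3 member with the top score stayed near the top, with 1000, 836, 786 and 758.

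The 4 clusters of the inflammatory list, that of Il10 included, held 28 members. Of these 22, 23 and 22 were kept in T0, LPS and T0-LPS (78.6, 82.1 and 78.6%), against 84.2, 85.2 and 80.5% in the weighted members of other clusters. The Ccl2 cluster, which begins 38429 bp upstream of Ccl2, the gene of the main monocyte chemoattractant, had 9 members. The T0 list kept 6, the LPS list 7 and the T0-LPS list 6, and the member printed above scored 688 (Veh), 551 (T0), 413 (LPS) and 350 (T0-LPS). It stood at percentile 78.2 in Veh, 77.4 in T0 and 61.7 in LPS. At Itgb2 every member was kept in T0 and LPS and 6 of 7 in T0-LPS. The Atf3 cluster, with 11 members over 62447 bp, kept the same number, 10, in each list.

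The question of the study's groups is what each treatment does to this set of enhancers. Of the 3499 members, 2764 (79.0%, interval 77.6 to 80.3) overlapped a T0 peak by at least 1 bp and are called kept, 2852 (81.5%, 80.2 to 82.8) were kept in LPS and 2681 (76.6%, 75.2 to 78.0) in T0-LPS. The missing members numbered 735, 647 and 818, or 21, 18.5 and 23.4%. Over all Veh peaks, promoters included, 18.2% were missing from T0, 13% from LPS and 17.7% from T0-LPS. Kept members rarely shared a partner peak: 10 (T0), 26 (LPS) and 20 (T0-LPS) overlapped the same peak as another member.

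The lists differ in length, from 29839 peaks in T0 to 35551 in Veh. With all lists shortened to 29839 peaks by score and the clusters rebuilt, the kept share was 91.0% (T0), 85.3% (LPS) and 84.9% (T0-LPS), so that T0 moved from below LPS to above it. The order of T0 and LPS therefore changed with the length of the lists.

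Members were next set against other distal peaks of the same score. Other distal peaks weighted to the members' score deciles were kept at 76.0% (T0), 82.1% (LPS) and 75.9% (T0-LPS). Members stood 2.96 percentage points higher in T0 (interval 1.52 to 4.39). The differences in LPS, -0.58 points (-1.96 to 0.79), and in T0-LPS, 0.76 points (-0.74 to 2.26), had intervals that included 0. In T0 members stood higher in each of deciles 1 to 8 by score, and most in deciles 3 and 4, where 69.2 and 88.4% of members were kept against 59.9 and 82.4% of the others.

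**Figure D3:**
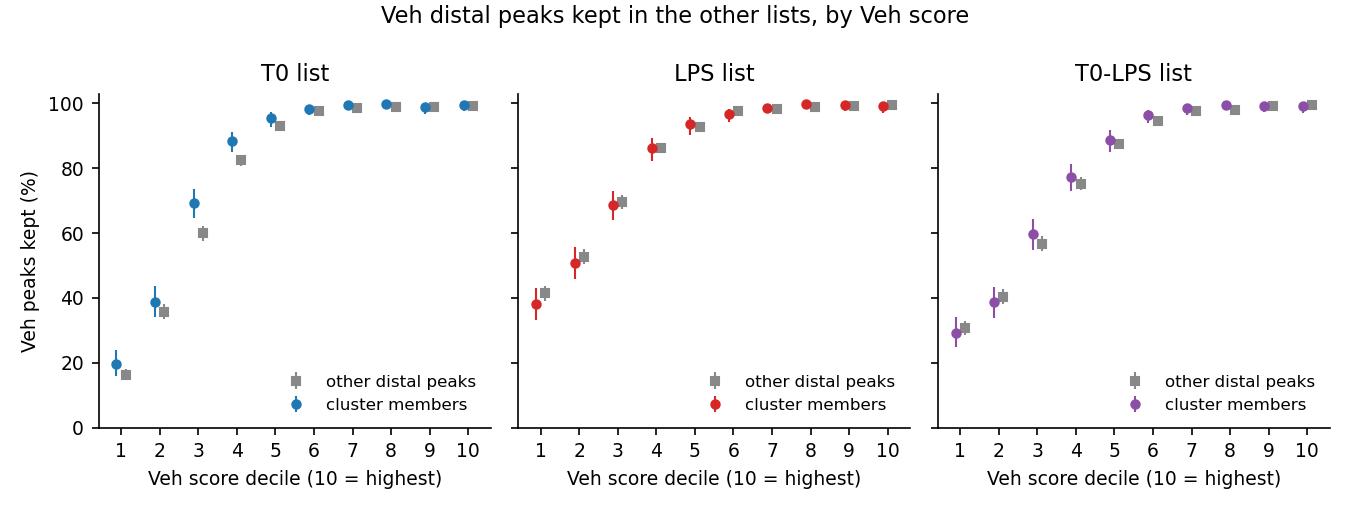
Share of distal Veh peaks kept, in percent, by decile of Veh score (1 weakest, 10 strongest) in the T0, LPS and T0-LPS lists; coloured circles are cluster members, grey squares other distal peaks, bars 95% intervals for counting error. From decile 6 on the lowest share in any panel is 94.5%, and in T0 members lie above the others in decile 3, at 69.2 against 59.9%.

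The T0 difference depends on how a missing peak is read. Peak names are numbered along the chromosome, so a number skipped in a list was read as a peak dropped by the filter for enhancer marks, and such a gap beside a missing member leaves room for one. Room was found for 143 of the 735 members missing from T0 (19.5%), against 42.1% of missing other distal peaks, and the figures were 20.1 against 46.1% in LPS and 19.3 against 43.8% in T0-LPS. If every missing peak with room is counted as kept, the difference turns to -2.95 points in T0 (interval -4.27 to -1.63), -5.05 in LPS and -5.21 in T0-LPS. Members were chosen for close neighbours, which leaves less space for a skipped number beside them. The lower share with room and the turned sign therefore depend in part on the rule that chose members. How large that part is was not tested.

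Missing members were weak ones. Their median Veh score was 134 (T0), 140 (LPS) and 145 (T0-LPS), against 376.5, 366 and 386 in kept members, and 89.9, 84.9 and 81.4% of them came from the lowest 3 deciles by score. The strongest member of a cluster was kept in 554 of 560 clusters in T0 and in 555 in both LPS and T0-LPS. The weakest was kept in 229, 272 and 220 clusters (40.9, 48.6 and 39.3%). Members at the ends of a cluster and those between them were kept at 78.3 and 79.3% in T0, while in LPS the ends stood at 83.1% (80.8 to 85.2) and the inner members at 80.7% (79.1 to 82.3).

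**Figure D4:**
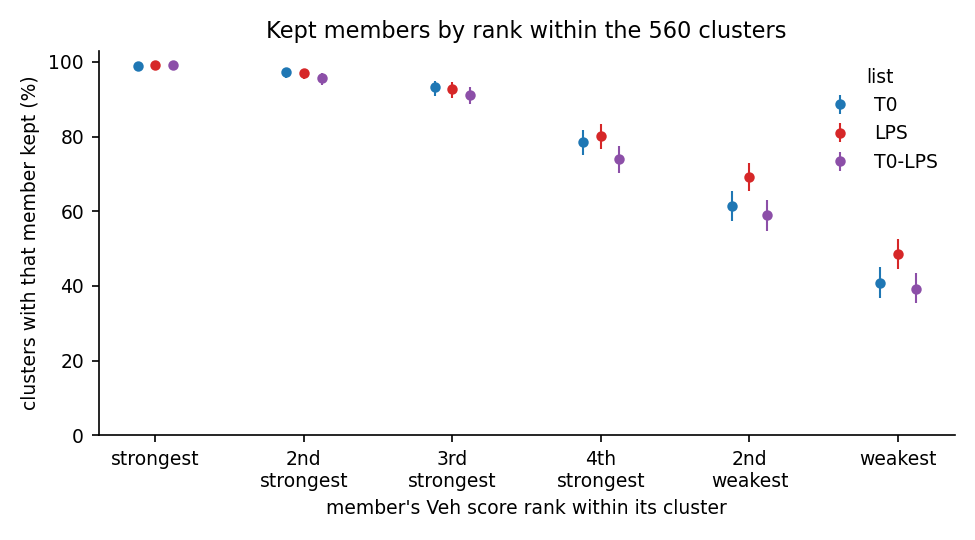
Share of the 560 clusters, in percent, in which the member of a given Veh score rank was kept in the T0 (blue), LPS (red) or T0-LPS (purple) list, with 95% intervals for counting error; in clusters of 5 the 4th strongest is also the 2nd weakest. The share falls from 98.9% (T0) and 99.1% (LPS) for the strongest to 40.9% and 48.6% for the weakest member.

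The strongest member was missing from at least 1 list in 8 clusters. Those near Glrp1, Lmo2 and Macf1, with Veh scores of 911, 607 and 657, were missing from all 3 lists, and each had room in all 3. Without room were the strongest members near Asap1 in T0, with a score of 216, and in Man1c1 in T0-LPS, with 423.

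Most members were present in every list. All 3 lists kept 2397 members (68.5%), against 69.8% of other distal peaks, and none kept 383 (10.9%), against 10.2%. A member missing from T0 was present in LPS in 320 of 735 cases (43.5%) and in T0-LPS in 241 (32.8%), against 46.6 and 34.1% of the other distal peaks missing from T0. A member missing from LPS was present in T0-LPS in 75 of 647 cases (11.6%), against 15.4% (14.1 to 16.7) of the other distal peaks missing from LPS. Members kept in T0 but missing from both lists with LPS numbered 189 (5.40%, 4.70 to 6.20), against 3.45% (3.20 to 3.73) of other distal peaks. None of these comparisons is weighted by score.

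No cluster lost every member in any list. All members were kept in 144 (T0), 171 (LPS) and 124 (T0-LPS) clusters, and in 63 they were kept in all 3. Clusters that kept no more than 50% of their members numbered 44, 35 and 54. Still 5 or more members were kept in 315, 348 and 293 clusters.

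The clusters with the most members missing from T0 lay in Hivep3, a zinc finger gene, with AL607142.1 as the nearest TSS (6 of 9 missing), at Plxnd1, a semaphorin receptor (5 of 6), at Prex1, a Rac exchange factor (4 of 5), in Asap1 (4 of 5) and in Tulp4 (4 of 6). They had been picked for this loss, and ties in the number missing were broken by share, which left out larger clusters that also lacked 4, such as Zmiz1 and Plekho2. At the Hivep3 cluster, chr4:119958922-119992065, the LPS list kept 8 of the 9 members and the T0-LPS list 7. Its strongest member scored 857 (Veh), 747 (T0), 797 (LPS) and 906 (T0-LPS). The member printed above scored 214 in Veh, was missing from T0, where it had room, and scored 345 in LPS and 253 in T0-LPS. Another member with a Veh score of 55 was missing from T0 and scored 344 in LPS and 335 in T0-LPS. A pair of neighbouring members there overlapped the same LPS peak, with a score of 322. Asap1 had a like pattern, with 1 of 5 members kept in T0 and all 5 in LPS and in T0-LPS. Of the 6 missing members of the Hivep3 cluster 4 had room in T0, and the 4 missing at Asap1 and the 4 at Tulp4 had none. Room in T0 was also found for 3 of the 5 missing at Plxnd1 and 2 of the 4 at Prex1.

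The clusters with the most members missing from LPS lay across Cdh23 and Vsir, the gene of the checkpoint protein VISTA, with Gm17455 as the nearest TSS (6 of 8 missing), at Cerk, ceramide kinase (5 of 9), near Csrp1 (5 of 9), at Metrnl, a secreted protein (4 of 5), and near Ikzf1, the lymphoid factor Ikaros (4 of 5). The T0-LPS list lacked the most at the same Gm17455, Cerk and Csrp1 clusters, with 6, 5 and 5, at Man1c1 with 5 of 6 and at Trak1 with 5 of 14; Zmiz1, with 5 of 18, tied in number. The Gm17455 cluster kept 5 members in T0 and the same number, 2, in LPS and in T0-LPS. Its strongest member scored 425 (Veh), 327 (T0), 301 (LPS) and 223 (T0-LPS), and the next one, with 312 in Veh and 210 in T0, was missing from both lists with LPS. Of its 6 members missing from LPS 2 had room, of the 4 near Ikzf1 all did, and of the 5 near Csrp1 none did. Room in LPS was also found for 3 of the 4 missing at Metrnl and 1 of the 5 at Cerk. Of the 6 Man1c1 members T0 kept 5, LPS 2 and T0-LPS 1.

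**Figure D5:**
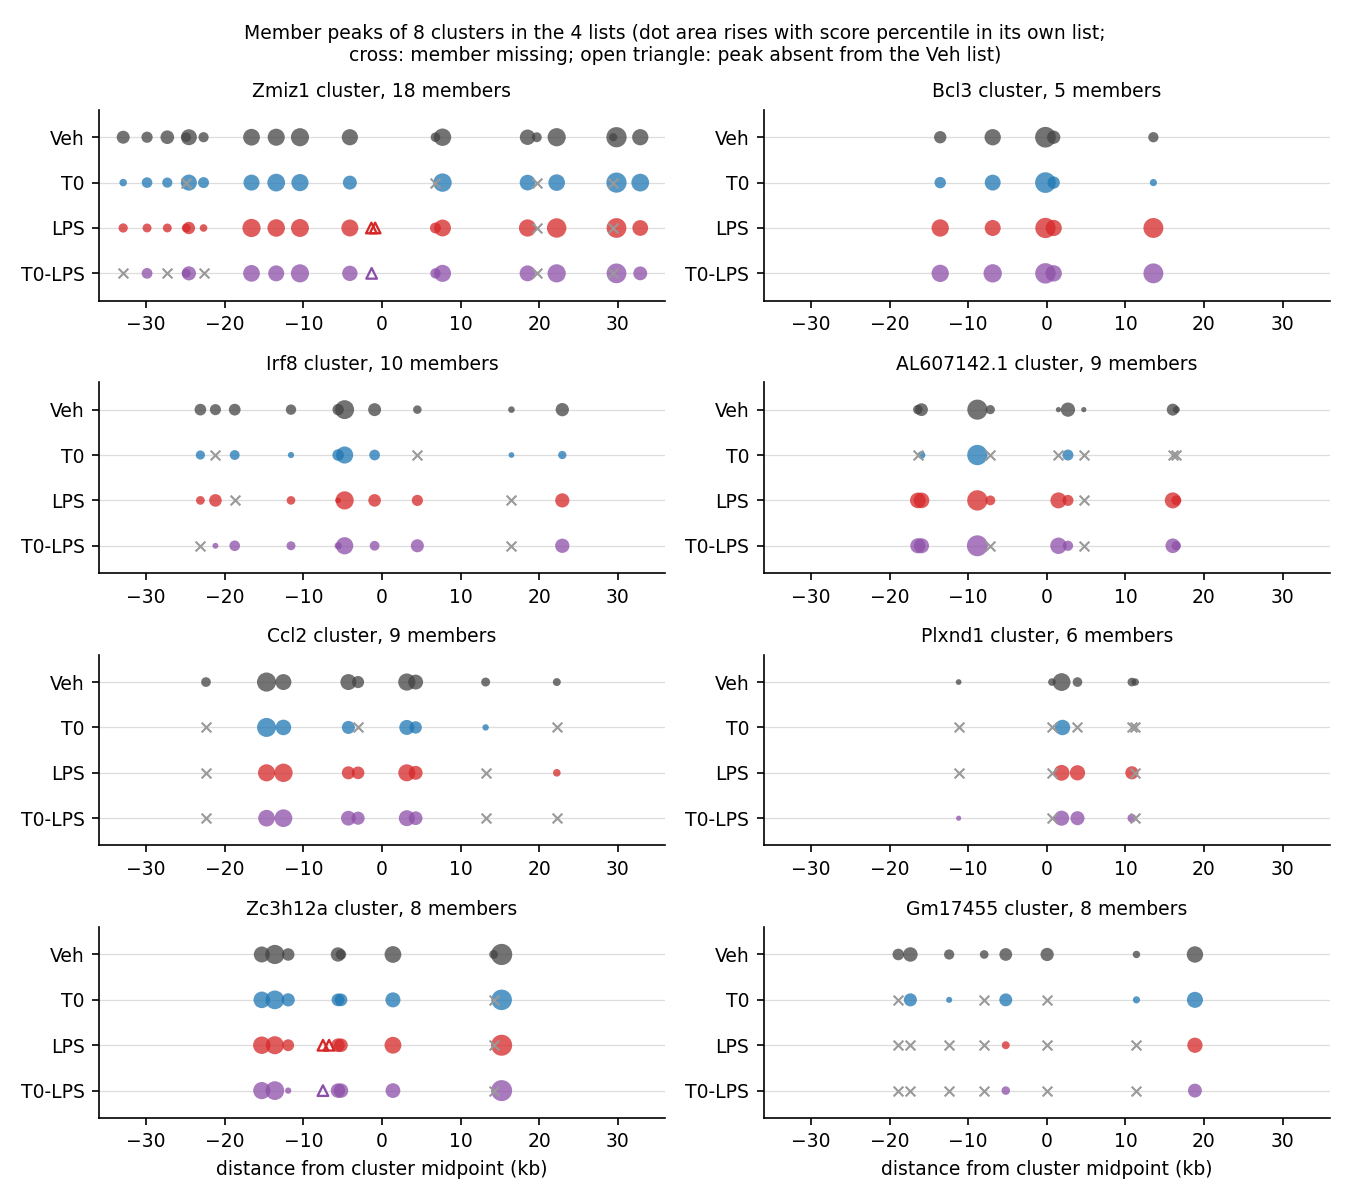
Member peaks of 8 clusters by distance from the cluster's midpoint in kb; rows are the Veh, T0, LPS and T0-LPS lists, dot area rises with the score percentile in its own list, crosses are members missing from a list and open triangles peaks absent from the Veh list. The AL607142.1 cluster shows 6 crosses in T0 and 1 in LPS, the Gm17455 cluster 6 in LPS, and the Bcl3 cluster none.

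Few peaks appeared inside clusters that the Veh list lacked. The T0 list had 10 such distal peaks in 9 clusters, the LPS list 115 in 90 and the T0-LPS list 71 in 59. Over whole lists, 0.751% of T0 peaks, 6.09% of LPS peaks and 4.56% of T0-LPS peaks were absent from Veh. They were weak, with median scores of 83, 125 and 129. A cluster's edges are set by Veh peaks, so a share of added peaks inside clusters cannot be set against that of peaks shared with Veh. The LPS list added most inside the cluster over Vmp1, named for the nearest TSS Tubd1, with 4 peaks scoring 90, 162, 91 and 359; the T0-LPS list had peaks of 91, 141 and 435 at the sites of those scoring 90, 162 and 359. It added 3 each at Fpr1, a formyl peptide receptor, over Irak2, a kinase below TLRs, near Tmem189 and near Bmp2k. At Cebpa it added 2, scoring 280 and 82. T0 added 2 near Pdia4, with scores of 73 and 54, and 1 each at Nfatc2, Wdr26, N4bp1, C1qtnf9, Ezh2, Atxn7l1, Klf6 and Hip1.

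Among kept members, shifts in rank depended on the peaks ranked. Percentiles within whole lists carry the unequal length of the lists: the median kept member changed by -6.49 (T0), -3.79 (LPS) and -5.86 (T0-LPS) percentiles. Measured this way, 4 of 2764 kept members rose by 20 or more in T0 (0.145%), 140 of 2852 in LPS (4.91%) and 126 of 2681 in T0-LPS (4.70%), while 289 (10.5%), 356 (12.48%) and 459 (17.1%) fell by as much. With ranks taken among the Veh peaks found in both lists, which was added after these values were seen, the median changes were 0.80, -1.01 and -0.68. Then 60 (2.17%, 1.69 to 2.78), 201 (7.05%, 6.16 to 8.05) and 226 (8.43%, 7.44 to 9.54) rose by 20 or more, and 73 (2.64%, 2.11 to 3.31), 250 (8.77%, 7.78 to 9.86) and 238 (8.88%, 7.86 to 10.01) fell. Other distal peaks weighted to the same score deciles had 1.91, 8.21 and 8.05% rising and 3.31, 9.50 and 10.8% falling by these ranks. In the Bcl3 cluster 3 of 5 members rose in LPS by both kinds of rank. In T0-LPS 3 rose by whole lists and 4 by shared peaks. Among single clusters, ranks by shared peaks were counted only there and at the Mrc1 cluster of 5 members. By whole lists 3 of 5 kept Mrc1 members fell by 20 or more in T0 and 3 of 4 in LPS. By shared peaks 0 and 1 did.

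Short motifs were counted in the central 200 bp of 3481 members and 18187 other distal peaks on the placed chromosomes, on both strands. The nuclear receptor half-site AGGTCA was found in 16.4% of members (interval 15.2 to 17.6), against 14.0% of other distal peaks weighted to the same scores and 14.4% of all distal peaks. The AP-1 letters TGANTCA were found in 25% (23.6 to 26.4) against 22.9% weighted and 23.7% of all distal peaks. The C/EBP letters TTGCNNAA stood at 14.3 against 13.4%, the PU.1 letters GAGGAAGT at 11.95 against 12.01%, the RUNX letters TGTGGTTT at 4.63 against 4.54%, the E-box TCANGTGA at 3.36 against 3.62%, and the IRF letters GAAANNGAA at 8.99 (8.09 to 9.99) against 10.0%. The CTCF letters AGGGGGCGC stood at 0.259 against 0.398%. The half-site repeated with a spacer of 4 bp, the LXR element, was counted with up to 2 mismatches in 2.53% (2.06 to 3.10) against 2.13%; it overlaps the half-site count. Median GC was 49.5% in members and 48.5% in the others, and its part in these shares was not tested. AP-1 letters were present in at least 1 member of 445 of the 557 clusters on placed chromosomes (79.9%). Such a count rises with the number of members in a cluster and is a description only.

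Motif shares of missing and kept members were set side by side. The half-site stood at 13.9% (11.6 to 16.6) in members missing from T0 and 17.0% (15.7 to 18.5) in those kept, or 19.7% in kept members weighted to the scores of the missing ones. C/EBP letters ran the other way, with 16.67% (14.14 to 19.54) in members missing from T0 and 10.41% in weighted kept members. Without weighting, kept members stood at 13.64% (12.41 to 14.98), an interval that overlaps that of the missing ones. Weighted shares of kept members have no interval, and in T0 they lean on few weak peaks, with 72 kept members in decile 1. PU.1 letters stood at 11.48% (9.36 to 13.99) against 8.14% weighted, but at 12.08% in kept members without weighting. In T0 the IRF letters and the LXR element were also lower in missing than in weighted kept members, and the other motifs searched were higher. AP-1 letters were found in 20.1% (17.5 to 23.0) of members missing from T0-LPS and 26.5% (24.8 to 28.2) of those kept, although kept members weighted to the scores of the missing ones stood at 21.9%. The NF-kB letters GGAATTTCC were found in 7 members (0.201%, 0.0974 to 0.415), against 0.440% of other distal peaks weighted to the same scores. They were found in 6 of the 115 LPS peaks added inside clusters (5.22%, 2.41 to 10.9), and C/EBP letters in 25 of these peaks (21.7%, 15.2 to 30.1). AP-1 letters were found in 17 of the 115 (14.78%, 9.44 to 22.4), below the 24.96% of members. PU.1 letters were found in 10 (8.7%, 4.79 to 15.27), against 11.95% of members. Motifs in LPS peaks added outside clusters were not counted.

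Rebuilding clusters by the same rule from each list gave 308 (T0), 426 (LPS) and 347 (T0-LPS). A cluster of T0 overlapped 51.8% of the Veh clusters, one of LPS 60.9% and one of T0-LPS 52.0%. Of the lists' own clusters 94.2, 80.0 and 83.9% overlapped a Veh cluster. Clusters of all 3 lists overlapped 212 Veh clusters (37.9%), and 159 (28.4%) were overlapped by none. At equal length the lists were closer, with 325 clusters (Veh), 308 (T0), 297 (LPS) and 301 (T0-LPS). Of the shortened Veh list's clusters 75.7, 66.5 and 66.5% were overlapped. The lists' own clusters then overlapped one of these in 79.5 (T0), 72.4 (LPS) and 71.4% (T0-LPS) of cases.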

How the data were processed

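ATAC-seq libraries of 16 macrophage cultures, 4 per group, were processed by the authors with cutadapt, Bowtie2 and SAMtools (duplicate removal), per the labels on mm10, and peaks were called with MACS2 on the 4 libraries of a group together, then kept where they met H3K27ac or H3K4me2 enhancers of other macrophages (bedtools). The 4 deposited lists hold a position, a numbered name and the authors' peak caller score, which grows with depth and was used for ranking within a list. Depth per library is unknown.

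TSSs came from the GENCODE vM21 basic annotation (GRCm38) and sequence from the RefSeq GRCm38 genome; all peaks on the 21 main chromosomes ended within its lengths. Distal peaks were stitched across gaps of at most 12.5 kb. The overlap that counted as kept was at least 1 bp. Shares have Wilson 95% intervals, and differences of shares normal 95% intervals. Other distal peaks were weighted to the members' deciles of Veh score. A cluster's gene is the protein-coding TSS nearest its midpoint. Clusters named were the 10 with most members, the 5 with most members missing from each list (ties by share), the 5 with most added LPS or T0 peaks, and those within 50 kb of listed genes (8 lists, 143 genes); sequences were those of the clusters first named, leaving out chromosome 18. Members, lists and rules were chosen with earlier results of these data known. Stitching, overlap and weighting were tested on simulated data. Alternatives changed the gap, size, TSS, score, overlap and length rules. Python 3.11.15, pandas 2.3.3, scipy 1.17.1 and pysam 0.24.0 were used.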

Additional observations from a re-analysis of the deposited data

How the results depend on the processing

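No leave-one-out fit was possible, since each list was pooled over its 4 libraries. No paired analysis was possible because the lists carry no replicate. Of 128 recomputed values, 83 stayed within their interval or within 1.5 times the count, 44 moved beyond it, 6 of them the shares of shifted ranks given above, and 1 whose interval excluded 0 turned its sign. That one was the T0 difference between members and other distal peaks, -2.95 points with missing peaks that had room counted as kept. Room depends in part on the spacing by which members were chosen. Under that reading the LPS difference was -5.05, the T0-LPS difference turned from 0.76 to -5.21, and the kept shares were 83.1% (T0), 85.2% (LPS) and 81.1% (T0-LPS). With gaps of at most 5 kb there were 104 clusters, of which 24, 28 and 15 kept every member in T0, LPS and T0-LPS respectively; the kept shares in LPS and T0-LPS were 76.8 and 71.3%, and the differences 5.05 (T0), -2.54 (LPS) and -1.06 (T0-LPS) points, the last with its sign turned. Gaps of at most 25 kb gave 1048 clusters, with every member kept in 253, 298 and 212. A minimum of 4 peaks gave 1033 clusters, with 333, 379 and 291 kept whole. A minimum of 8 gave 95 clusters, with 12, 14 and 5 kept whole, a T0 share of 80.6%, and differences of 6.05 points in T0 and 1.19 in LPS, where the sign turned, as it did with lists of equal length (0.51). With Veh scores of at least 100 the kept shares were 82.5, 83.8 and 78.9%, with a reciprocal overlap of 50% they were 76.7, 78.5 and 73.7%, and with lists of equal length 91.0, 85.3 and 84.9%. The number of listed genes with a cluster within reach was 27 at 50 kb, 33 at 100 kb and 18 at 10 kb. Leaving out the unplaced contig and taking TSSs from the comprehensive annotation were added after the data were seen, as were the shared ranks, and moved none of the values of clusters and kept shares beyond those limits. Weak peaks, which make up most of the missing members, are the ones that the unknown depth of the pooled libraries limits.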

Other observations

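Of the 426 clusters built from the LPS list, 85 overlapped no Veh cluster. Inside 54 of them the Veh list had 4 distal peaks, 1 short of the rule, in 18 it had 3 or fewer, and in 13 it had 5 or more. The following were chosen after their values were seen. They come from LPS clusters without a Veh cluster, so an LPS count above that of Veh was partly set by the choice. The LPS cluster at Tnf, which also spans Lta and Ltb, held 9 LPS peaks, with 5 distal Veh peaks, 5 T0 peaks and 9 T0-LPS peaks inside. The one near Tnfaip3, the gene of the NF-kB inhibitor A20, held 7 LPS peaks against 3 Veh, 3 T0 and 5 T0-LPS peaks. The one at Nod2, a sensor of bacterial cell wall, held 6 LPS peaks against 3 in Veh and 3 in T0, and 6 in T0-LPS. At Tnip1, which encodes a partner of A20, there were 5 LPS peaks, 1 Veh peak, 1 T0 peak and 5 T0-LPS peaks. Near Cxcl10 the LPS list had 5, the Veh and T0 lists 4 and the T0-LPS list 3.

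Of the 308 clusters of the T0 list, 18 overlapped no Veh cluster, and in 17 of these the Veh list had 4 distal peaks. With all lists shortened to 29839 peaks, 63 T0, 82 LPS and 86 T0-LPS clusters overlapped no cluster of the shortened Veh list. The counts of 18 and 85 therefore depend on the length of the lists. For these 18 a T0 count above that of Veh was likewise partly set by the choice. The LPS and T0-LPS lists also formed a cluster without a Veh one at Alox5ap, and the T0-LPS list near Spp1. At Alox5ap, which encodes the activating protein of leukotriene synthesis, 6 T0 peaks stood beside 4 Veh, 5 LPS and 5 T0-LPS peaks, and near Spp1, the osteopontin gene, 5 stood beside 4 in Veh, 4 in LPS and 5 in T0-LPS.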
